A study of Bos taurus with 15 samples.

Results

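The fatty acid binding proteins (FABPs) FABP1 to FABP7 were followed through 15 single-cell RNA-seq libraries of Holstein cattle. The genes were taken by symbol, and each of the 7 symbols named exactly 1 of the 27270 genes in the count tables. Newborn (NB) libraries came from salivary gland, liver, 2 forestomach chambers (omasum and reticulum), the glandular abomasum, 3 parts of the small intestine (jejunum, duodenum, ileum) and 3 of the large intestine (colon, rectum, cecum) of calves, with the animal not given per library. Adult (AD) libraries came from duodenum, jejunum, cecum and colon of a lactating cow, the same animal for all 4 tissues. The labels name no treatment and no altered allele. Each tissue and stage had 1 library, so that no difference between stages or tissues has a replicate check, and stage, animal and dissociation procedure changed together. All NB gut pieces went through EDTA and trypsin first, and the intestinal pieces were then digested with a lamina propria kit. That kit was also used, without those steps, on AD duodenum and cecum, while AD jejunum and colon were digested with a multi-tissue kit.

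FABPs are small cytoplasmic proteins that hold long-chain fatty acids and other lipids inside cells and carry them between membranes, enzymes and nuclear receptors. FABP1 (liver type) and FABP2 (intestinal type) are known from absorptive enterocytes, FABP1 also from hepatocytes, and FABP6 (ileal type, also called gastrotropin) binds bile acids in the distal small intestine. FABP3 (heart type) is known from muscle, FABP4 from adipocytes, macrophages and capillary endothelium, FABP5 from epidermis, endothelium and macrophages, and FABP7 (brain type) from glia. FABP5 and FABP4 lie near each other on the bovine genome with FABP9 and FABP12 as neighbours in RefSeq (ARS-UCD2.0). The files identify the members as ENSBTAG00000018054 (FABP1), ENSBTAG00000017045 (FABP2), ENSBTAG00000016819 (FABP3), ENSBTAG00000037526 (FABP4), ENSBTAG00000047330 (FABP5), ENSBTAG00000010632 (FABP6) and ENSBTAG00000033803 (FABP7).

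A kept barcode had 500 to 4000 genes, fewer than 50000 unique molecular identifiers (UMIs) and less than 40% mitochondrial UMIs. Kept barcodes were placed in classes by a UMI of EPCAM or KRT14 (epithelial), PTPRC (leukocytes), COL1A2 (stroma) or PECAM1 (endothelium and some leukocytes), with a class for barcodes that had none of these markers. Barcodes with markers of more than 1 class were left out, which removed 4.26% to 27.4% of kept barcodes per library. Library totals ran from 17707625 to 129458578 UMIs with 2694 to 12957 kept barcodes, and libraries shared between 4 and 84 barcode sequences per pair, at most 1.02% of the smaller library. UMIs were summed over the barcodes of a class in a library, called a pool here, and levels are given in CPM (the UMIs of a gene per 1000000 UMIs of its pool) with exact Poisson 95% intervals that cover counting error only. Of 75 pools, 66 held at least 50 barcodes. Because the 3′ method yields 1 UMI per captured molecule, CPM of different genes was compared without a correction for length. In pooled cells, fewer cells of a type and less RNA per cell cannot be told apart.

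FABP1 reached 100 CPM in 16 of the 66 pools, 9 of them epithelial, and its highest levels were in NB duodenum epithelium (26195 CPM) and NB jejunum epithelium (9849 CPM). FABP2 reached 100 CPM in 13 pools, 7 of them epithelial. FABP5 did so in 37 pools, among them 12 of 13 PECAM1 pools. FABP3 reached that level in 9 pools and never exceeded 244 CPM, the value in liver epithelial barcodes. FABP6 reached it in 1 pool, NB ileum epithelium, and FABP4 in 1 pool, salivary gland COL1A2 barcodes. FABP7 reached it in none, and its highest pool was omasum COL1A2 at 85.4 CPM.

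**Figure D1:**
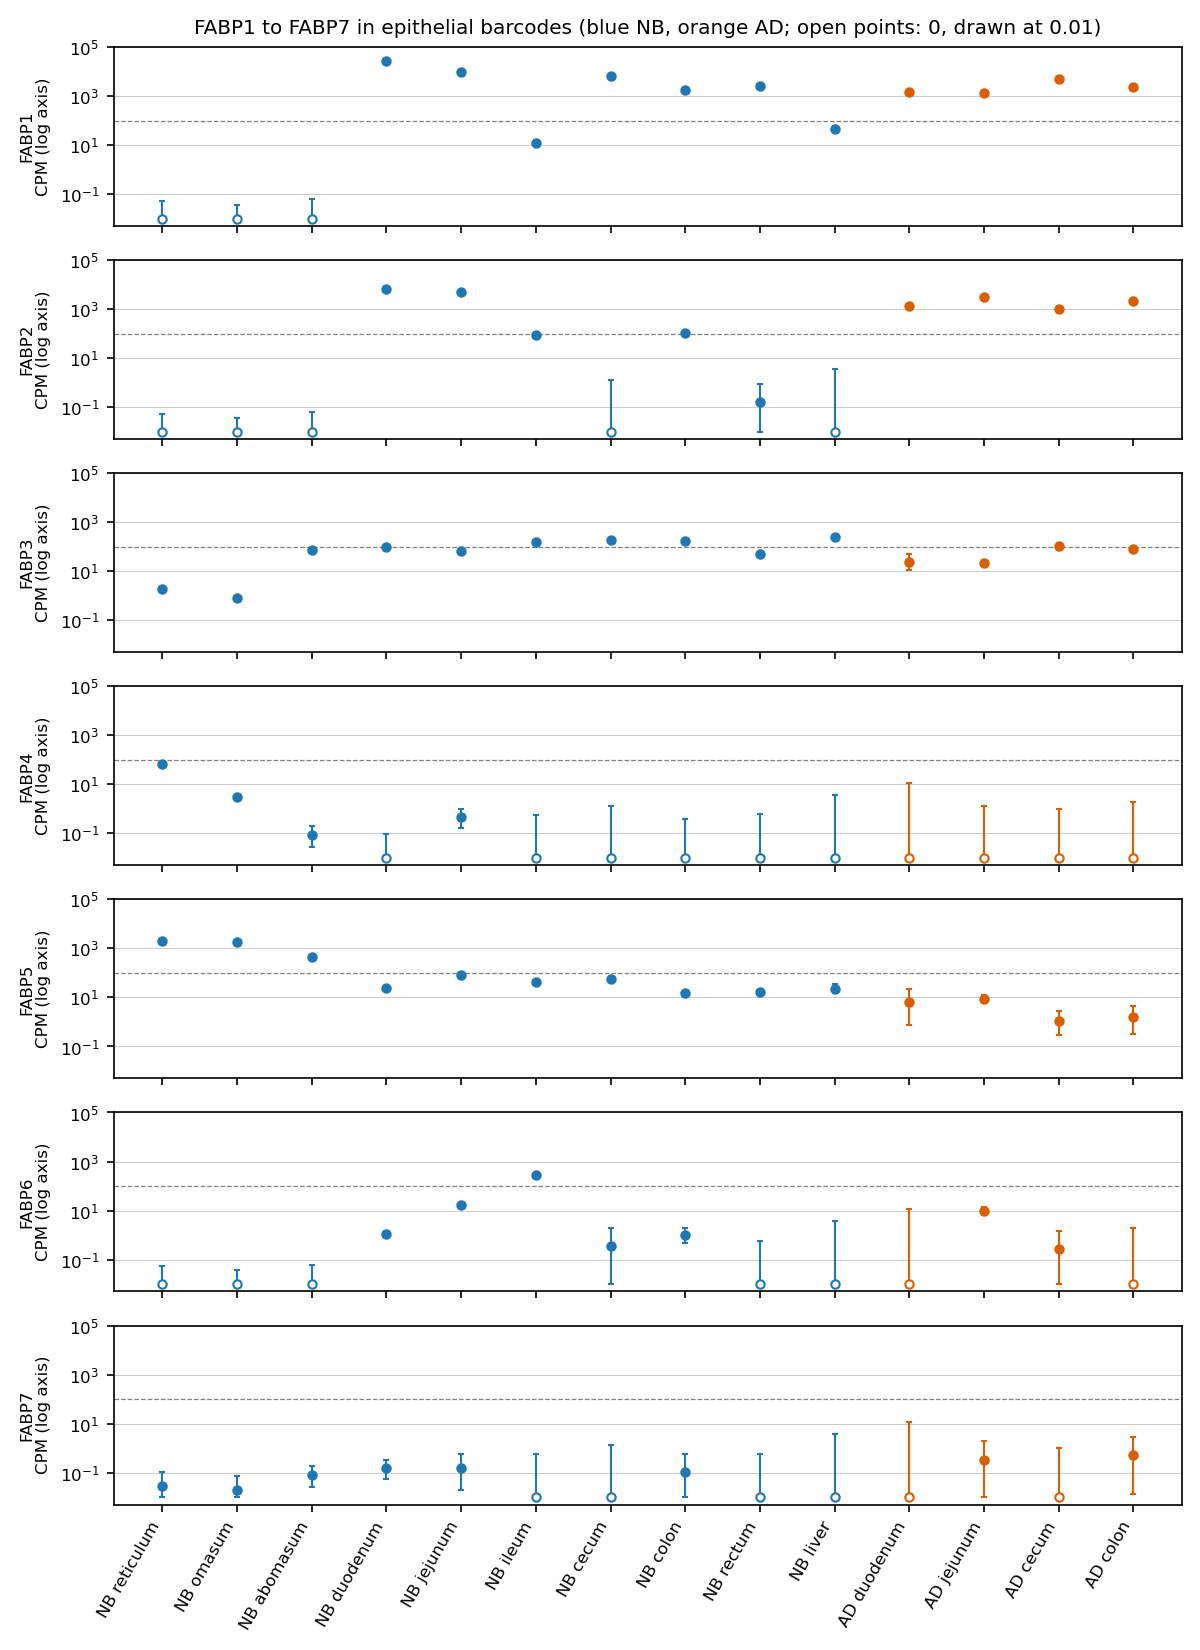
Levels of FABP1 to FABP7 (CPM, log axes) in epithelial barcodes of 14 libraries with at least 50 such barcodes, NB in blue and AD in orange, with exact Poisson 95% intervals and a dashed line at 100 CPM. FABP1 and FABP2 were highest in NB duodenum and at 0 in reticulum, omasum and abomasum. FABP2 was also at 0 in NB cecum and liver. FABP5 was highest in reticulum and omasum, and FABP6 stood out in NB ileum at 288 CPM.

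FABP1, the liver form, was the most abundant member in most intestinal epithelia. In NB duodenum epithelial barcodes FABP1 measured 26195 CPM (26145 to 26246, n = 3133 barcodes) and ranked 3 among 17074 detected genes. It measured 9849 CPM (9795 to 9903) in NB jejunum, where it ranked 13, and 12.6 CPM (10.1 to 15.6, n = 611) in NB ileum. Among the NB large intestine pools it measured 6381 CPM (6289 to 6475, n = 273) in cecum, 1806 CPM (1779 to 1832) in colon and 2679 CPM (2638 to 2720) in rectum. The order down the NB intestine was therefore not a steady decline, since ileum lay below all 3 large intestine pools and cecum above colon and rectum. No Poisson intervals of neighbours in this order overlapped. AD values were 1456 CPM (1327 to 1594, n = 52) in duodenum, 1337 CPM (1295 to 1379, n = 271) in jejunum, 5163 CPM (5091 to 5236, n = 319) in cecum and 2390 CPM (2321 to 2461, n = 186) in colon. AD duodenum and jejunum had overlapping intervals and cecum was the highest of the 4 AD tissues.

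FABP1 had no UMI in epithelial barcodes of reticulum, omasum or abomasum. In liver, epithelial barcodes had 44.7 CPM (32.6 to 59.8, n = 160). Hepatocyte markers in liver lay mainly outside that class: the 114 barcodes without a class marker that carried at least 2 hepatocyte genes (such as ALB and TTR) had FABP1 at 582 CPM, against 10.8 CPM in the 23 epithelial barcodes with that list. The liver library was mostly PTPRC barcodes (7240 of 12717), so its FABP1 level rests on few hepatocyte-like barcodes.

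FABP2, the intestinal form that binds a fatty acid in a buried cavity, followed FABP1 in the NB proximal small intestine but not further down. It measured 6526 CPM (6501 to 6552) in NB duodenum and 4779 CPM (4741 to 4817) in NB jejunum epithelium, and 89.4 CPM (82.3 to 96.9) in NB ileum. In the NB large intestine FABP2 was at 0 of 2847297 UMIs in cecum (3 UMIs, the limit taken for a count of 0, would be 1.05 CPM), at 1 UMI in rectum (0.159 CPM) and at 106 CPM (99.6 to 113) in colon. In the AD animal FABP2 measured 1053 CPM (1020 to 1086) in cecum and 2189 CPM (2123 to 2257) in colon, beside 1372 CPM (1246 to 1506) in duodenum and 3000 CPM (2938 to 3064) in jejunum. All 4 AD tissues thus lay above every NB large intestine pool. RBP2, a retinol binding protein of enterocytes, measured 0.262 CPM in AD cecum and 0 in AD colon epithelium, against 209 and 227 CPM in AD duodenum and jejunum.

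In NB duodenum 92.3% of epithelial barcodes with FABP1 also had FABP2, close to the 91.7% of all epithelial barcodes of that library. In NB colon 29.7% of barcodes with FABP1 had FABP2, against 16.7% of all epithelial barcodes, and in NB cecum 0 of 209 did. In AD cecum the share was 77.7% against 54.9%, and in AD colon 82.3% against 53.8%. These shares rise with depth and were not thinned. The number of FABP1 UMIs exceeded FABP2 UMIs by 4.01 times in NB duodenum epithelium, 2.06 times in NB jejunum, 17.0 times in NB colon and 4.91 times in AD cecum. The ratio was 1.09 in AD colon and 1.06 in AD duodenum. FABP2 exceeded FABP1 in NB ileum, where the ratio was 0.141, and in AD jejunum, where it was 0.446.

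Within the epithelial class FABP1 and FABP2 were concentrated in barcodes with at least 2 enterocyte markers (a list of APOA1, APOA4, ALPI, SI, LCT, ANPEP, CDHR5, CDHR2 and VIL1). In NB duodenum the 2365 such barcodes had FABP1 at 31678 CPM and FABP2 at 7922 CPM, against 692 and 192 CPM in 20 barcodes with the goblet list. In NB jejunum the enterocyte-list barcodes had FABP1 at 14279 CPM and the 56 goblet-list barcodes at 48.9 CPM. In NB colon the values of FABP1 were 2615 and 490 CPM, in NB rectum 3471 and 109 CPM. In NB ileum FABP1 measured 32.2 CPM in the enterocyte list and 2.62 CPM in the goblet list. Of the goblet list only SPINK4, CLCA1 and TFF3 were in the files. Barcodes with both lists were in neither group, so goblet-list barcodes had fewer than 2 enterocyte markers by definition. The share of all genes that differ between these lists was not computed. Median UMIs per barcode differ between these lists.

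UMIs of FABP1 and FABP2 were also present outside the epithelial class. In NB duodenum FABP1 measured 475.5 CPM in PTPRC, 594 CPM in PECAM1 and 737 CPM in COL1A2 barcodes, and 2111 CPM in barcodes with fewer than 500 genes. Barcodes with fewer than 500 genes had no mitochondrial limit, and their median mitochondrial share in NB duodenum was 47.4%. With every barcode thinned to 1000 UMIs, FABP1 was detected in 77.8% of 3122 epithelial, 38.7% of 524 PTPRC and 47.1% of 1445 PECAM1 barcodes of NB duodenum. Without thinning these shares were 98.1%, 92.8% and 92.95%, at median depths of 12649, 8904 and 4693 UMIs. In NB ileum, where epithelial FABP1 was 12.6 CPM, PTPRC barcodes had 0.116 CPM. FABP1 over FABP2 was 1.99 (1.85 to 2.14) in PTPRC and 2.14 (2.10 to 2.19) in the barcodes under 500 genes of NB duodenum, and 3.27 (3.08 to 3.47) in its PECAM1 barcodes. In AD jejunum the ratio was 0.206 (0.188 to 0.226) in PTPRC and 0.187 (0.161 to 0.216) in the barcodes under 500 genes. The intervals were apart in AD duodenum, with 1.055 (0.9615 to 1.16) in PTPRC and 1.57 (1.24 to 1.99) in barcodes under 500 genes, and in NB jejunum, with 1.77 (1.57 to 1.99) and 1.11 (1.03 to 1.21). They overlapped in AD cecum (5.92 and 8.78), AD colon (2.86 and 4.31) and NB colon (13.4 and 18.7). Within AD leukocytes FABP2 was uneven in jejunum and duodenum. Macrophage-list barcodes had 158 CPM in jejunum and 118.5 CPM in duodenum, T-list barcodes 14.99 and 2.15 CPM. FABP1 in the same barcodes measured 30.6 and 111 CPM against 5.02 and 4.61 CPM. In AD colon FABP2 measured 1.47 CPM in the macrophage list and 1.71 CPM in the T list. The AD cecum values were 5.48 CPM (0.664 to 19.8) and 1.76 CPM. In NB duodenum FABP2 measured 213 CPM in the macrophage list and 222 CPM in the 23 T-list barcodes. FABP1 measured 465 and 858 CPM there. The part of free RNA in this was not tested.

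FABP6, a carrier of bile acids in ileal enterocytes, reached 10 CPM in 4 of the 66 pools. It measured 288 CPM (275 to 301, 1894 UMIs) in NB ileum epithelium and 16.3 CPM (14.2 to 18.6) in NB jejunum, a ratio of 17.7 between the highest and the next pool. NB duodenum had 1.14 CPM, NB cecum 0.351 CPM, NB colon 1.03 CPM and NB rectum 0. AD jejunum had 9.93 CPM (6.65 to 14.3), which overlaps the lower end of the NB jejunum interval, and AD ileum was not analysed here. Few barcodes carried most of it: in NB ileum the top 5% of epithelial barcodes held 76.8% of its UMIs, and 114 of 611 barcodes had any. In the 178 enterocyte-list barcodes of NB ileum FABP6 measured 704 CPM. Thinned to 1000 UMIs, 8.75% of 606 epithelial barcodes had a UMI of FABP6, compared with 0.332% of 2407 PTPRC barcodes (unthinned 18.7% and 1.23%, median depths 10122 and 5240 UMIs). FABP6 was also seen in fibroblast-list barcodes, at 19.8 CPM in NB jejunum and 29.8 CPM in NB ileum.

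Of the 114 NB ileum barcodes with FABP6, 76.3% had FABP2 and 21.9% had FABP1. Of the 9 bile acid genes, 3 reached 10 CPM on average in the NB small or large intestine, and 1 of these, SLC51B, was higher in all 3 small intestine pools than in all 3 large intestine pools, against 27.3% of all genes apart in either direction. SLC10A2, the apical bile acid transporter, measured 3.19 CPM in NB ileum and 27.8 CPM in liver epithelium. The basolateral exporter subunits SLC51A and SLC51B had 5.62 and 30.85 CPM in NB ileum, and 32.6 and 70.2 CPM in NB jejunum.

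A comparison of the 3 NB small intestine pools with the 3 NB large intestine pools placed FABP6 apart (all 3 small intestine values above all 3 large intestine values), and no other member of the 5 with at least 10 CPM on average. Among all genes at that level 27.3% were apart in either direction. The separation of FABP6 rests on the gap between 1.14 CPM in duodenum and 1.03 CPM in colon, whose intervals overlap. FABP6 was no longer apart with no upper limit on genes, without the barcodes of most UMIs or with the mean of single barcodes, and under a mitochondrial share of 10% FABP2 was apart in its place. FABP5 was apart beside FABP6 with 2 UMIs per marker or with mixed barcodes kept. FABP1 and FABP2 overlapped because of ileum, and FABP3 measured 64.6 to 155 CPM on the small side and 49.3 to 192 CPM on the large side.

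Among pools with a class marker, FABP5, the epidermal form, was highest in keratinized forestomach epithelium and in PECAM1 barcodes. In barcodes without a class marker FABP5 measured 2077 CPM in NB jejunum, 1154 CPM in reticulum and 1127 CPM in omasum. In reticulum epithelial barcodes it measured 2067 CPM (2056 to 2078, n = 6527) and in omasum 1852 CPM (1844 to 1861, n = 9924). The glandular abomasum had 444 CPM, and NB intestinal epithelia between 14.8 CPM in colon and 83.0 CPM in jejunum. AD epithelia were lower still, from 1.05 CPM in cecum to 8.90 CPM in jejunum.

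Within forestomach epithelium FABP5 was higher in barcodes with more differentiated keratinocyte markers (of KRT6A, KRT4, IVL, DSG1 and KRT10). In reticulum barcodes FABP5 measured 444 CPM with 0 markers, 806 with 1, 1367 with 2, 2395 with 3 and 4704 CPM with 4 or more. In omasum FABP5 measured 212, 388, 762, 1686 and 3574 CPM over the same steps. Intervals of neighbouring steps did not overlap in either library. Median depth rose over these steps as well, from 5766 to 15014 UMIs in reticulum and from 5572 to 13206.5 UMIs in omasum. Among barcodes of 8000 to 12000 UMIs FABP5 still went from 384 to 3586 CPM in reticulum and from 267 to 2762 CPM in omasum.

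FABP4, the adipocyte form, measured 64.9 CPM in reticulum epithelium and 3.18 CPM in omasum epithelium. In COL1A2 barcodes the order was the other way, with 9.22 CPM (1.12 to 33.3) in reticulum and 68.3 CPM (45.4 to 98.7) in omasum, where 2 barcodes held all FABP4 UMIs. In epithelial barcodes the FABP4 steps with differentiated markers went from 12.7 to 168 CPM in reticulum and from 0 to 6.90 CPM in omasum. Among barcodes of 8000 to 12000 UMIs FABP4 went from 6.74 to 146 CPM in reticulum, while in omasum it measured 1.62 CPM with 3 markers and 1.43 CPM with 4 or more, on 17 and 9 UMIs. FABP4 was carried by few barcodes: 741 of 6527 reticulum epithelial barcodes had it, and the top 5% held 90.4% of its UMIs. Of those 741 barcodes, 96.4% also had FABP5, against 90.3% of all epithelial barcodes of reticulum. Whether the difference between reticulum and omasum would recur in other animals could not be assessed with 1 library each.

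**Figure D2:**
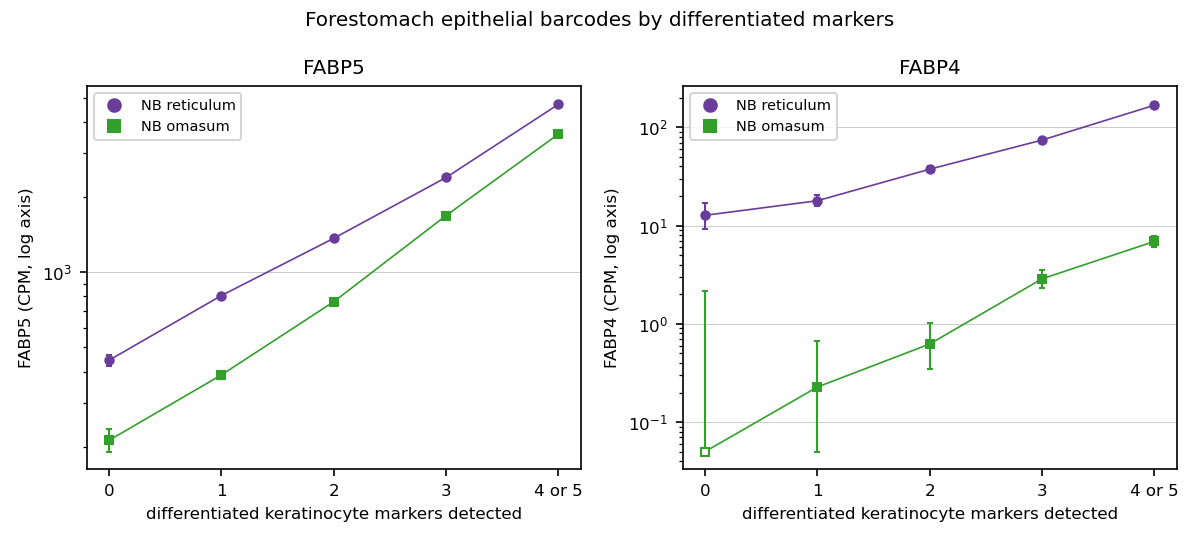
FABP5 (left) and FABP4 (right) in CPM on log axes against the number of differentiated keratinocyte markers detected per epithelial barcode, for NB reticulum (circles) and NB omasum (squares), with exact Poisson 95% intervals. An open point is a level of 0 drawn at 0.05. FABP5 increased from each number of markers to the next in both libraries, and FABP4 was lower in omasum than in reticulum at every number.

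In PECAM1 barcodes FABP5 was the leading member in all 13 pools. FABP5 measured 4321 CPM in abomasum, 4669 CPM in NB duodenum, 5781 CPM (5746 to 5816) in NB jejunum, 3956 CPM in ileum, 2392 CPM in NB cecum, 1451 CPM in NB colon and 1587 CPM in rectum. It ranked 13 among 16420 genes in NB jejunum. Reticulum and omasum, with 203 and 179 CPM, lay below these, as did liver with 452 CPM. Thinned to 1000 UMIs, 77.2% of NB jejunum PECAM1 barcodes and 7.13% of NB jejunum epithelial barcodes had a UMI of FABP5 (unthinned 88.5% and 31.9%, median depths 4786 and 12021 UMIs).

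The endothelial level of FABP5 belonged to blood vessel barcodes. In NB jejunum FABP5 measured 7434 CPM in 2581 barcodes with at least 2 blood endothelial markers (PLVAP, VWF, CDH5 and FLT1) and 262 CPM in 217 barcodes with lymphatic markers (PROX1, LYVE1, CCL21 and MMRN1). The blood list was higher in 6 of 6 libraries with at least 20 barcodes of both, with intervals apart in all 6. Over these 6 libraries FABP5 ranged from 2010 to 7434 CPM (median 5356) in the blood list and from 121 to 1058 CPM (median 341) in the lymphatic list. Among all genes at 10 CPM or more, 18.6% were higher in the blood list in all 6. Reticulum and omasum formed an exception, with 196 CPM in 150 and 170 CPM in 81 blood-list barcodes. Their endothelial level of FABP5 was lower than that of any other library with 20 such barcodes, while their epithelial level was the highest.

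**Figure D3:**
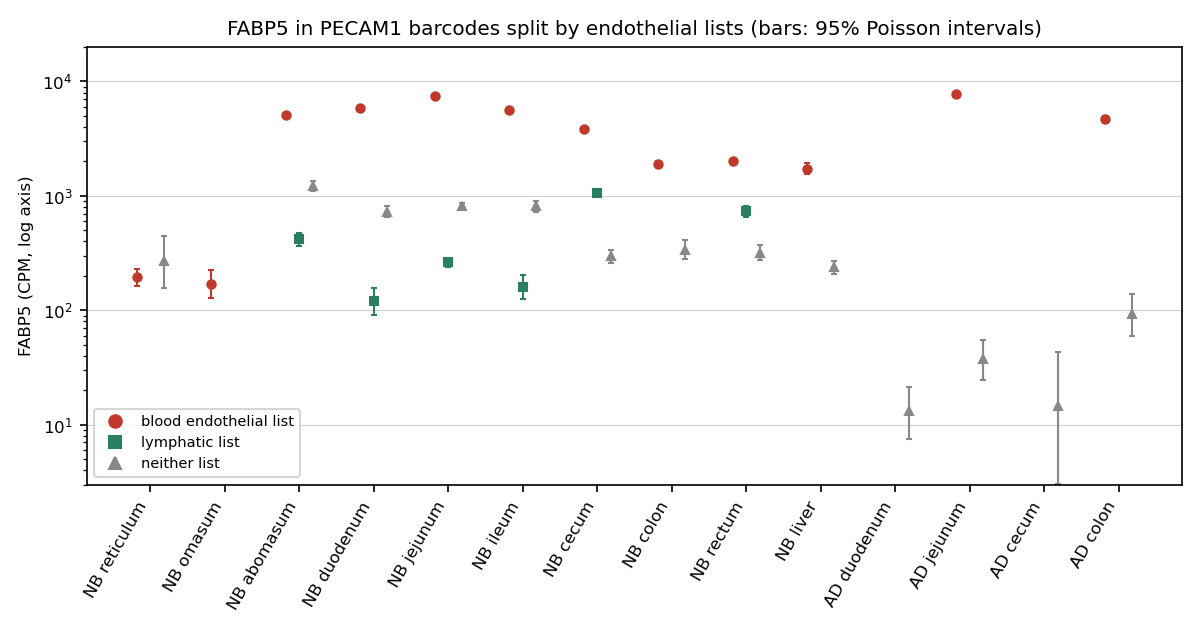
FABP5 (CPM, log axis) in PECAM1 barcodes with the blood endothelial list (circles), the lymphatic list (squares) or neither (triangles), for pools of at least 20 barcodes, with exact Poisson 95% intervals. Blood-list pools lay between 1733 and 7721 CPM except in reticulum and omasum, at 196 and 170 CPM.

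FABP4 was highest among PECAM1 pools in salivary gland and liver. Liver PECAM1 barcodes had 74.6 CPM, and the 33 with the blood list 490 CPM. The salivary gland PECAM1 pool had only 21 barcodes and 676 CPM of FABP4, with the UMIs in 3 barcodes. Blood-list barcodes of NB jejunum had 0.885 CPM of FABP4, those of NB cecum 7.03 CPM and those of NB duodenum 0. The salivary gland COL1A2 value of 145 CPM rested on 6 of 113 barcodes, of which the highest had 58 UMIs. No pool of at least 20 barcodes carried the adipocyte list (ADIPOQ, PLIN1 and CIDEC). In all AD libraries FABP4 had no UMI in any class.

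FABP3, the heart form that shuttles fatty acids to mitochondria in muscle, was low but broad. In epithelial barcodes it measured 244 CPM (215 to 277) in liver, 192 CPM (176 to 208) in NB cecum, 167 CPM (159 to 176) in NB colon and 155 CPM (146 to 165) in ileum. Intervals of colon and ileum overlapped, and those of liver, cecum and colon did not. NB duodenum had 94.9 CPM, abomasum 76.1 CPM, NB jejunum 64.6 CPM and rectum 49.3 CPM. Reticulum and omasum had 1.84 and 0.80 CPM. Epithelial FABP5 was highest in reticulum and omasum (2067 and 1852 CPM), where FABP3 was lowest. Its order elsewhere was not the reverse of FABP3, with 57.3 CPM in NB cecum, 22.8 CPM in liver and 17.4 CPM in rectum.

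Between the T and macrophage lists of leukocytes, pooled FABP3 and FABP5 levels differed in opposite directions. Barcodes with at least 2 of CD3D, CD3E and CD3G (T list) had FABP3 at 55.3 to 221 CPM over 13 libraries (median 117), and macrophage-list barcodes (C1QA, C1QB, C1QC, CD68, CSF1R, MRC1 and CD163) at 1.47 to 35.2 CPM (median 9.18). FABP3 was higher in the T list in 13 of 13 libraries, with intervals apart in 12. Among all genes at 10 CPM or more, 10.4% were higher in the T list in all 13. FABP5 ran the other way, at 56.4 to 1104 CPM (median 311.5) in the macrophage list and 8.56 to 64.2 CPM (median 20.2) in the T list. It was higher in the macrophage list in 13 of 13 libraries with intervals apart in all, against 13.6% of genes. Dendritic-list barcodes, myeloid cells too, had FABP5 at 1.71 CPM in AD jejunum and 44.8 CPM in NB jejunum.

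**Figure D4:**
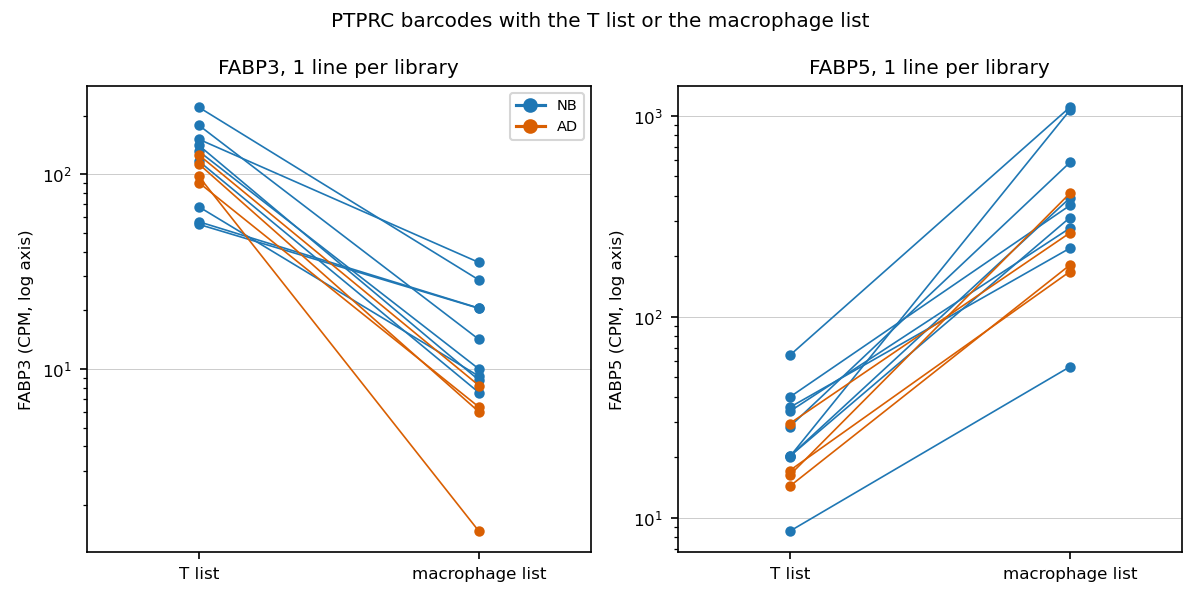
FABP3 (left) and FABP5 (right) in CPM on log axes in T-list and macrophage-list PTPRC barcodes, with 1 line for each of 13 libraries, NB in blue and AD in orange. All 13 lines fell from T to macrophage list for FABP3 and all 13 rose for FABP5.

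FABP7, the brain form, reached 10 CPM in 3 of the 66 pools. The highest were COL1A2 barcodes of omasum (85.4 CPM, 59.5 to 119, 35 UMIs) and reticulum (82.9 CPM, 49.2 to 131, 18 UMIs), whose intervals overlap. NB duodenum COL1A2 barcodes had 15.9 CPM and the remaining COL1A2 pools between 0.974 and 9.48 CPM.

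Between NB and AD, 16 pairs of pools with at least 50 barcodes at both stages gave 56 comparisons of a member with at least 10 CPM on the higher side, of which 43 differed at least 2-fold. Of these, 36 were higher in NB and 7 in AD. Over the same comparisons 31.9% of all tests of a gene passed that fold, 60.1% of them higher in NB. FABP1 (11) and FABP2 (3) outside epithelial barcodes made up 14 of the 36 and 1 of the 7, which leaves 22 and 6. The part of free RNA was not tested for any member. FABP5 too had UMIs in barcodes with fewer than 500 genes, at 817 CPM in NB jejunum. All genes were split unevenly as well, with 5084 higher in NB and 460 in AD among duodenum PECAM1 barcodes, and 1155 and 2061 among duodenum epithelial barcodes. The median log2 ratio of all genes in these comparisons ran from -0.43 in colon epithelium to 1.39 in duodenum PECAM1 barcodes, and subtracting it left 45 differences, 37 of them higher in NB. In epithelial barcodes, 4 of the 4 members at that level differed in duodenum (background 41.0% of all genes), 3 of 5 in jejunum (25.5%), 2 of 4 in cecum (19.3%) and 3 of 4 in colon (28.5%). FABP5 was higher in NB in all 4 tissues, with log2 ratios of 1.78, 3.09, 4.83 and 2.61 from duodenum to colon. The AD values of FABP5 behind these ratios rested on 2, 26, 4 and 3 UMIs, with intervals of 0.755 to 22.5, 5.81 to 13.0, 0.286 to 2.69 and 0.330 to 4.68 CPM, of which the first overlaps the NB duodenum interval of 22.3 to 25.3 CPM. FABP1 was higher in NB duodenum (log2 ratio 4.17) and jejunum (2.88), and its log2 ratios in cecum and colon were 0.31 and -0.40. FABP2 was higher in NB duodenum (2.25), at 0.67 in jejunum, and higher in AD colon (-4.36). In cecum, with no UMI at NB, FABP2 was at least 999-fold higher in AD, taking 3 UMIs as the NB limit. FABP3 was higher in NB duodenum, jejunum and colon (1.89, 1.56 and 1.09).

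The AD duodenum pool needs to be read with its size, 52 barcodes, of which 9 had FABP2 and the top 5% held 93.6% of its UMIs. AD class sizes differed in general: AD libraries held 6718 to 7387 PTPRC barcodes each and 52 to 319 epithelial barcodes. Limited to barcodes with the enterocyte list, which gave pools of at least 20 barcodes at both stages in 3 tissues, FABP1 in jejunum measured 14279 CPM in NB and 3238 CPM in AD. FABP2 there measured 6872 and 7235 CPM, in cecum 0 and 1613 CPM, and in colon 163 and 2959 CPM. Members past 2-fold in these barcodes numbered 3 of 5 in jejunum (background 22.7%), 1 of 3 in cecum (21.7%) and 2 of 3 in colon (31.1%). The difference of FABP5 remained past 2-fold in jejunum (51.1 and 5.01 CPM). In cecum (9.92 and 1.17 CPM) and colon (3.22 and 0.942 CPM) FABP5 was under 10 CPM at both stages. In jejunum 703 of 1069 NB and 80 of 271 AD epithelial barcodes carried the enterocyte list. Its gene APOA4 was itself higher in NB jejunum, so the list need not select like cells at both stages.

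**Figure D5:**
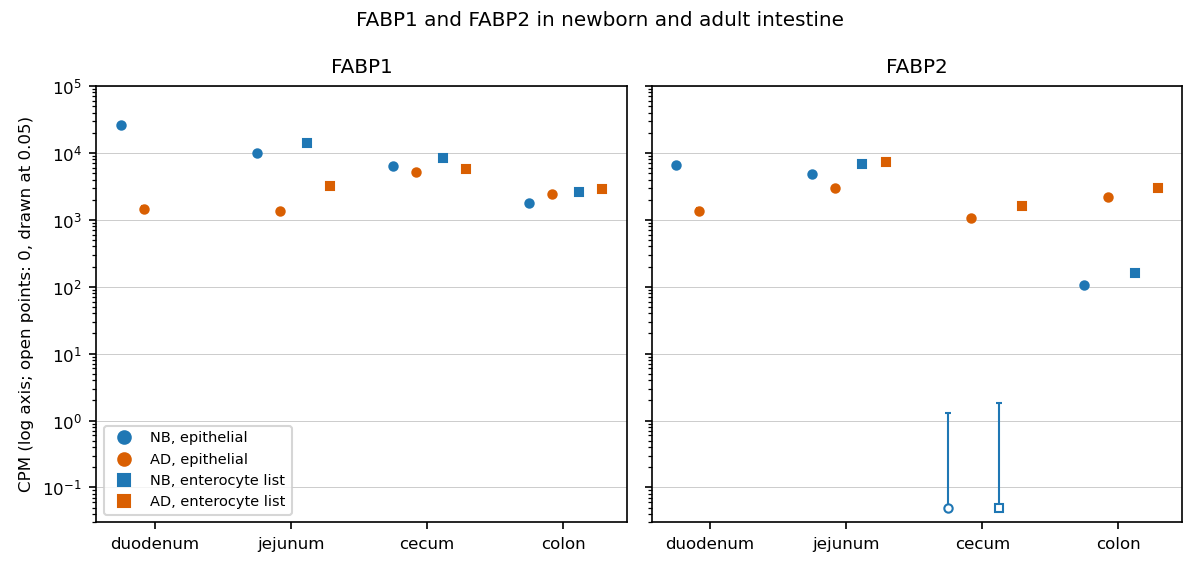
FABP1 (left) and FABP2 (right) in CPM on log axes in NB (blue) and AD (orange) libraries of 4 tissues, in all epithelial barcodes (circles) and in enterocyte-list barcodes (squares), with exact Poisson 95% intervals. Open points mark 0 UMIs of FABP2 in NB cecum, where the AD library had 1053 CPM in epithelial barcodes.

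In PTPRC barcodes, FABP1 and FABP2 UMIs included, 4 of 4 members differed in duodenum (background 37.5%), 4 of 4 in jejunum (18.5%), 3 of 3 in cecum (34.3%) and 2 of 3 in colon (29.3%). FABP1 was among these in every tissue (475.5 and 29.1 CPM in NB and AD duodenum) and FABP2 in duodenum (239 and 27.6 CPM) and jejunum (27.6 and 67.9 CPM), and the part of free RNA in them was not tested. In cecum the log2 ratio of FABP1 was 2.37, and -0.26 when barcodes with markers of more than 1 class were kept. Such barcodes were 27.4% of kept barcodes in NB cecum and 6.01% in AD cecum. Which library brought about the shift was not tested. FABP3 was higher in AD duodenum, jejunum and cecum (log2 ratios -2.21, -1.75 and -1.25), and FABP5 was higher in NB in all 4 tissues (2.04, 2.81, 1.87 and 1.41). The makeup of this class differed by stage, with T-list barcodes numbering 4904 of 7387 in AD duodenum and 23 of 528 in NB duodenum. Within T-list barcodes no tissue had a 2-fold difference of FABP3, whose log2 ratios were 0.53, -0.72, 0.50 and 0.52. Members past 2-fold in these barcodes were 2 of 4, 1 of 4, 2 of 3 and 2 of 3, against backgrounds of 45.1%, 36.5%, 28.9% and 25.5%. FABP5 was higher in NB T-list barcodes of cecum (35.4 and 14.3 CPM) and colon (39.8 and 16.3 CPM), and the rest were FABP1 and FABP2. Within macrophage-list barcodes FABP5 was past 2-fold only in jejunum (586 CPM in NB and 168 CPM in AD), with log2 ratios of 0.25, 0.28 and -0.20 in duodenum, cecum and colon. Members past 2-fold there were 1 of 3, 2 of 3, 1 of 3 and 1 of 2, the others being FABP1 higher in NB duodenum, cecum and colon and FABP2 higher in AD jejunum, and the backgrounds 12.2%, 13.0%, 24.8% and 31.2% from duodenum to colon.

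In PECAM1 barcodes FABP5 measured 4669 CPM in NB duodenum and 69.2 CPM in AD duodenum, 5781 and 1700 CPM in jejunum, and 1451 and 1804 CPM in colon. Members past 2-fold were 3 of 3, 2 of 3 and 1 of 2, against backgrounds of 69.6%, 30.2% and 30.3%. Most AD barcodes of this class carried neither endothelial list, 130 of 133 in duodenum, 93 of 139 in jejunum and 30 of 56 in colon. In blood-list barcodes FABP5 measured 7434 CPM in NB jejunum and 7721 CPM (7338 to 8118, n = 35) in AD jejunum, a log2 ratio of -0.05. In colon it measured 1917 CPM in NB and 4690 CPM (n = 24) in AD, and was higher in AD. Members past 2-fold in the blood list were 2 of 3 in jejunum and 2 of 2 in colon, against backgrounds of 28.0% and 34.0%. These were FABP1 (59.5 and 5.06 CPM in NB and AD) and FABP2 (29.1 CPM and 0) in jejunum, and FABP1 (16.5 CPM and 0) beside FABP5 in colon. The intervals of the AD zeros reached 18.7 CPM for FABP2 and 23.1 CPM for FABP1, so that a 2-fold difference was not detectable at this depth for either. The COL1A2 class allowed a comparison only in colon, where 2 of 3 members, FABP3 and FABP5, were higher in NB (background 21.9%). FABP3 measured 13.6 CPM (8.18 to 21.2) in NB and 3.64 CPM (0.991 to 9.31) in AD, with overlapping intervals. FABP5 measured 32.2 CPM (23.5 to 43.1) in NB and 0.909 CPM (0.0230 to 5.06) in AD. Barcodes without a marker had 4 of 4, 2 of 4, 2 of 3 and 2 of 3 members past 2-fold (38.9%, 27.9%, 27.5% and 28.4%).

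Other genes of lipid handling gave a frame for the epithelial values, from lists of the pathway. Their counts stand beside the shares of all genes past 2-fold in either direction, 41.0%, 25.5%, 19.3% and 28.5% from duodenum to colon. The counts are over all epithelial barcodes, and the AD duodenum pool had 52. In jejunum 703 of 1069 NB and 80 of 271 AD epithelial barcodes carried the enterocyte list. The part of cell makeup in the counts was not tested. Of 9 other intracellular lipid binding proteins, RBP2 alone reached 10 CPM in duodenum and jejunum, with 10102 CPM in NB duodenum and 6718 CPM in NB jejunum, and it was past 2-fold toward NB in all 4 tissues. With it, CRABP1 was higher in NB cecum (2 of 2 tested) and CRABP1 and CRABP2 in NB colon (3 of 3). Of 9 genes of triglyceride and chylomicron assembly in the files, 7 of 8 at 10 CPM or more were higher in NB duodenum, 4 of 7 in NB jejunum, 2 of 4 in NB cecum and 2 of 5 in NB colon, and none was higher in AD. Their median log2 ratio was 2.86 in duodenum and 1.74 in jejunum, beside -0.30 and -0.31 over all genes. APOA4, a chylomicron apolipoprotein, measured 1109 CPM in NB duodenum, 1204 CPM in NB jejunum, 36.3 CPM in AD jejunum and 3.95 CPM in NB ileum. MTTP, which loads lipid onto APOB, measured 415 CPM in NB duodenum and 288.5 CPM in NB jejunum. Of 13 genes of fatty acid uptake and activation, 3 of 9 were higher in NB duodenum, 4 of 9 in NB jejunum and 2 of 9 in AD jejunum, among the former SLC27A4 (298.5 and 45.2 CPM in NB and AD jejunum) and ACSL5 (183 and 73.3 CPM). In cecum 1 of 6 was higher in NB. In colon none of 6 was higher in NB and 3 were higher in AD, ACSL5 among them (26.0 and 80.6 CPM in NB and AD). Of 8 genes of fatty acid oxidation, 3 were past 2-fold toward NB in duodenum, none in jejunum or cecum and 1 toward AD in colon. Of 9 bile acid genes 3 of 3 at 10 CPM or more were higher in NB duodenum, and 1 of 3, 1 of 3 and 1 of 2 in the next 3 tissues. Of 7 fatty acid sensors, 2 of 4 were higher in NB duodenum and 1 in AD, none of 3 or 4 in jejunum and cecum, and 1 of 4 in AD colon. Of 8 genes of lipid droplets and lipolysis, 1 of 3 was higher in NB in each of duodenum and jejunum, 1 of 3 in NB and 2 of 3 in AD cecum, and 1 of 2 at each stage in colon.

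Across the 66 pools, the gene most like FABP1 in log2(CPM + 1) was CDHR5 (r = 0.887), a microvillus cadherin, followed by KRT20 (0.871) and USH1C (0.860). FABP2 was nearest to PRAP1 (0.848), LGALS2 (0.823) and SI (0.817), the sucrase-isomaltase. FABP3 was nearest to APOM (0.740), RHPN2 (0.738) and PMM2 (0.725). FABP4 was nearest to COL14A1 (0.624), BARX1 (0.615) and NTRK2 (0.594), and FABP5 to RASSF9 (0.801), INKA1 (0.786) and PLXNA2 (0.785). FABP6 was nearest to REG3G (0.731), MS4A18 (0.656) and GCG (0.655), and FABP7 to PRRX2 (0.860), TWIST2 (0.858) and CCDC102B (0.843). By Spearman correlation PRAP1, GCG and all genes named for FABP4 and FABP7 were outside the top 10. FABP4 reached 10 CPM in only 8 of the 66 pools and FABP7 in 3. Among the members themselves FABP1 and FABP2 had r = 0.71, the highest of the 21 pairs, and FABP3 and FABP5 r = -0.59, the lowest. Pools share libraries, depth and free RNA, so that these correlations over 66 pools are a description.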

How the data were processed

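The deposited values were UMI counts per gene and barcode in 15 matrices, which the authors made from Chromium 3′ v3 libraries with Cell Ranger 3.1.0 on the bovine assembly ARS-UCD1.2. All 15 matrices were used as deposited, with no ambient RNA correction and no batch integration. Counts were summed over barcodes of a class in each library and divided by the pool's UMIs, in Python 3.11.15 (NumPy 2.4.6, SciPy 1.17.1). Barcode limits followed the study (500 to 4000 genes, under 50000 UMIs, under 40% mitochondrial UMIs). The study also ran a doublet caller, which was not repeated, and doublets were handled only by leaving out barcodes with markers of more than 1 class. A marker list needed at least 2 of its genes and no second list of that class, and list pools needed at least 20 barcodes, a number set after the data were seen, as were the steps of keratinocyte markers with their depth band and the stage comparisons within lists. Levels carry exact Poisson and shares exact binomial (Clopper-Pearson) 95% intervals. UMIs of 1 pool are not replicates, so no p-values were computed. Stage differences were called at 2-fold on log2(CPM + 1) with at least 10 CPM on the higher side, and the call was tested on simulated counts. Genes named beside the members were the 3 with the highest Pearson correlation over pools with at least 50 barcodes, among genes with 10 CPM in at least 3 pools, and up to 5 members of each pathway list with the highest level. The members and lists were chosen with earlier results of these data known. Alternatives changed the marker threshold, filters, totals, pseudocount and fold. A split of FABP7 by a further marker list is not reported here.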

Additional observations from a re-analysis of the deposited data

Results flagged for a closer look

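FABP2 moved in opposite directions between stages in different tissues. In epithelial barcodes its log2 ratio of NB over AD was 2.25 in duodenum, -4.36 in colon and, on the scale with a pseudocount of 1 CPM, -10.04 in cecum, where NB had no UMI. The duodenum value rests on an AD pool of 52 barcodes, of which 9 had FABP2. In jejunum the log2 ratio of FABP2 was 0.67, under 2-fold, and -0.07 in enterocyte-list barcodes. In PTPRC barcodes the log2 ratio of FABP2 was 3.07 in duodenum and -1.27 in jejunum, and the part of free RNA in these was not tested. The difference between tissues was not tested, since each tissue and stage had 1 library.

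Barcodes with fewer than 500 genes, which were left out of the classes, held UMIs of all members. They were taken without a mitochondrial limit. Their median mitochondrial share ran from 19.3% in salivary gland to 54.0% in AD cecum, and whether they were damaged cells or empty droplets was not tested. The highest values were FABP1 at 2111 CPM and FABP2 at 984.9 CPM in NB duodenum, FABP3 at 70.3 CPM in salivary gland, FABP4 at 31.0 CPM in reticulum, FABP5 at 817 CPM in NB jejunum, FABP6 at 39.0 CPM in NB ileum and FABP7 at 3.64 CPM in AD jejunum.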

How the results depend on the processing

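No paired test was run over the 4 tissues with both stages, whose AD libraries came from 1 cow. Because each tissue and stage had 1 library, no replicate could be left out. Of 70 alternative values of the counts reported, 61 lay within 1.5 times. Pools at 100 CPM went from 1 to 0 for FABP4 when barcodes with markers of more than 1 class were kept, and from 0 to 2 for FABP7 with the mean of single barcodes. The 43 stage differences (36 higher in NB and 7 in AD) became 28 at 4-fold (25 and 3), and 55 with no limit on the level (44 and 11). With mixed barcodes kept they numbered 49 (37 and 12). Members apart between NB small and large intestine numbered 2 (FABP5 and FABP6) with 2 UMIs per marker or with mixed barcodes kept, and 0 with no upper limit on genes, without the barcodes of most UMIs, or with the mean of single barcodes. With a mitochondrial share under 10% the 1 member apart was FABP2, not FABP6. Of the 21 most similar genes, 9 were also among the top 3 by Spearman correlation, none of them for FABP4 or FABP7. Of 370 alternative log2 ratios of the 43 differences, 255 stayed within the counting interval, 114 moved beyond it in the same direction and 1 changed sign: FABP1 in PTPRC barcodes of cecum went from 2.37 to -0.26 with mixed barcodes kept. The cause was not tested. In epithelial barcodes of jejunum, cecum and colon 8 member differences were found in all barcodes and 6 in enterocyte-list barcodes, an alternative chosen after seeing the data. The AD epithelial pools held 52 to 319 barcodes.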
